A study of Mus musculus with 4 samples.

Results

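Granins and the proteins that process them in dense-core vesicles were described in Neuro-2a, an established mouse neuroblastoma line, after exposure to the pyrethroid insecticide deltamethrin. The genes were the granins Chga, Chgb, Scg2, Scg3, Scg5 and Vgf, the convertases Pcsk1 and Pcsk2, the convertase inhibitor Pcsk1n and the carboxypeptidase Cpe, chosen by gene symbol in the array's annotation. Of these 10 genes, 9 had a probe set, 1 each, among the 22206 probe sets (19505 named genes) of the series. Expression of Pcsk2 was not analysed here. Semi-confluent cells of strain A origin received 30 µM deltamethrin or the vehicle, 0.1% DMSO, in the medium for 24 h, and both groups were the same unmodified line. There were 2 Clariom S Mouse arrays per group. The labels do not say that the 2 arrays of a group came from separate cultures, so the p-values measure only the spread between these arrays, which may be technical.

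Granins are acidic proteins that aggregate with calcium in the trans-Golgi network, help to form dense-core vesicles, and are themselves precursors of secreted peptides. Inside the vesicle, prohormone convertases cut precursors after pairs of basic residues, and carboxypeptidase E then trims the exposed basic residues. Chromogranin A is widely used as a marker of neuroendocrine tumours, neuroblastoma among them.

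The arrays' medians lay between 5.61 and 5.63 on the log2 scale of the deposited values. Differences over all probe sets had a standard deviation of 0.332 between the vehicle arrays, 0.368 between the deltamethrin arrays and 0.403 to 0.453 across the groups. Batches were not named in the labels used here, and a batch that followed the groups could not be told apart from the treatment. A probe set was taken as above the median of all probe sets (5.60) when the mean of either group exceeded it. Of 12 sympathoadrenal identity genes, 9 were measured and all 9 lay above the median of all probe sets. Defining genes of fibroblasts (5 measured) and glia (4 measured) all lay below that median, and of 5 measured for macrophages and microglia 1 lay above it, the leukocyte gene Ptprc. Of 6 genes of other endocrine tissues, all measured, 1 lay above it, the growth hormone gene Gh.

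The stretch before the start site of 3 granin genes is shown because these genes had the highest and the 2 lowest estimates among the members with a promoter record. They are the 250 bases upstream of the start, 5′ to 3′ in the direction of the gene, from RefSeq on build GRCm38.p6. Capitals mark the cAMP response element TGACGTCA or its core TGACG, the sequence that CREB-family factors are known to bind. The Scg2 stretch is at chr1:79440027-79440276 on the minus strand, the Chgb stretch at chr2:132781392-132781641 on the plus strand and the Chga stretch at chr12:102554691-102554940 on the plus strand.
Scg2: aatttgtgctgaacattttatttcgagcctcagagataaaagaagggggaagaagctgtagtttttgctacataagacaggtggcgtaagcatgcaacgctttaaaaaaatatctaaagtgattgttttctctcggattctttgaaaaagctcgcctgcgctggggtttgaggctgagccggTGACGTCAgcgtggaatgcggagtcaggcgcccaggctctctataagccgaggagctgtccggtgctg
Chgb: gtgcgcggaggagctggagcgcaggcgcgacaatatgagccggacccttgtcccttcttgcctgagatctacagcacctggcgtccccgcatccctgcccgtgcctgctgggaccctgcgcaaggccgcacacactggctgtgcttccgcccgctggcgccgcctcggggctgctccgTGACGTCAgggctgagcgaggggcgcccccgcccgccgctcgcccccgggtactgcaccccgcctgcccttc
Chga: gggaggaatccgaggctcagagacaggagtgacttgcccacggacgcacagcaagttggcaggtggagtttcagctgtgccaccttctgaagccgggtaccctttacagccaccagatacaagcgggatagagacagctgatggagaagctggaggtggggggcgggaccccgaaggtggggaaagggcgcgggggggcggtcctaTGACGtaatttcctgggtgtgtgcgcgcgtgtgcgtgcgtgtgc
Scg2 and Chgb held the full element at almost the same place, with its first base at position -68 and -72 from the start site. Chga held a core at position -44 and no full element. On both strands, 3 of the 8 member promoters in the table had TGACGTCA (Scg2, Chgb and Pcsk1), against 1.55% of all 32851 promoters searched. The core, which the full element contains, was in 7 of the 8 against 17.8% of all, and the amino acid response element core TGATGNAAN was in 0 of the 8 against 3.44% of all. A match describes letters in this window and is not a measured binding site. Vgf and Cpe had no entry, and the 8 promoters include that of Pcsk2, whose expression was not analysed here.

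Among the granins, 2 had higher and 2 had lower values on both deltamethrin arrays than on either vehicle array by at least 0.35, while Scg3 differed by less and Scg5 overlapped. Scg2 was 1.91-fold higher, Vgf 1.39-fold higher, Chgb 1.45-fold lower and Chga 1.41-fold lower with deltamethrin. None of the 9 measured members passed limma at an adjusted p below 0.05, where 0.432% of all probe sets and 0.838% of those above the median did. An unadjusted p below 0.05 was reached by 4 of 9 members, against 13.7% of all probe sets and 18.9% of those above the median. By direction these were 2 members higher, against 6.83% of all probe sets, and 2 lower, against 6.84%. Of the 11335 probe sets above the median, 1179 were higher and 962 lower at that level. Some of these 11335 entered only through the group where they were higher. Shares among them are therefore not independent of the difference between groups. The groups did not overlap for 5 of 9 members, against 43.9% of all probe sets and 53.2% of those above the median, so this count by itself was near the background. In these bulk RNA samples, a difference in the number of cells that hold a transcript and one in the amount per cell cannot be told apart. The members' median log2 difference was 0.095, beside -0.02 over all probe sets.

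Scg2 encodes secretogranin II, the precursor of secretoneurin. Its log2 values were 14.48 and 14.41 on the vehicle arrays and 15.25 and 15.50 on the deltamethrin arrays. Both deltamethrin arrays were above both vehicle arrays, with a gap of 0.77 between the groups. The mean went from 14.45 ± 0.05 to 15.38 ± 0.18 (SD, n = 2), and the log2 difference was 0.93 ± 0.18 (SE), with a 95% confidence interval of 0.50 to 1.36 and a limma adjusted p of 0.121. Of the probe sets above the median, 96.6% had a smaller absolute difference. Scg2 was called higher when the variance was allowed to depend on the level (mean-variance trend, limma adjusted p = 0.00227) and when the dimmest 40% of probe sets were left out (limma adjusted p = 0.0460), a setting in which 2.34% of the probe sets kept were called. When any 1 array was left out, neither Scg2 nor any other probe set was called, and the Scg2 estimate ran from 0.81 to 1.06.

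Vgf encodes the nerve growth factor inducible precursor VGF, which gives rise to several neuropeptides. Its values were 13.78 and 13.92 with vehicle and 14.27 and 14.38 with deltamethrin, so the groups were separate by 0.35. The log2 difference was 0.48 ± 0.17 (SE, limma adjusted p = 0.303), with a 95% confidence interval of 0.07 to 0.88. With a mean-variance trend Vgf was called higher (limma adjusted p = 0.0489).

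Chgb encodes chromogranin B. Its values were 14.17 and 14.12 with vehicle and 13.57 and 13.65 with deltamethrin. The gap between the groups was 0.47, larger than the distance between the 2 arrays of either group. The log2 difference was -0.54 ± 0.16 (SE, limma adjusted p = 0.248), with a 95% confidence interval of -0.93 to -0.14. A mean-variance trend called it lower (limma adjusted p = 0.0282).

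Chga, the chromogranin A gene, had values of 13.23 and 13.25 with vehicle and 12.64 and 12.84 with deltamethrin. Both deltamethrin arrays were lower, by a gap of 0.39. The log2 difference was -0.50 ± 0.17 (SE, limma adjusted p = 0.289), with a 95% confidence interval of -0.91 to -0.09, and the trend left it just short of a call (limma adjusted p = 0.0599). With that trend 3 of the 9 members were called (Scg2, Vgf and Chgb), against 3.63% of all probe sets and 6.99% of those above the median.

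**Figure D1:**
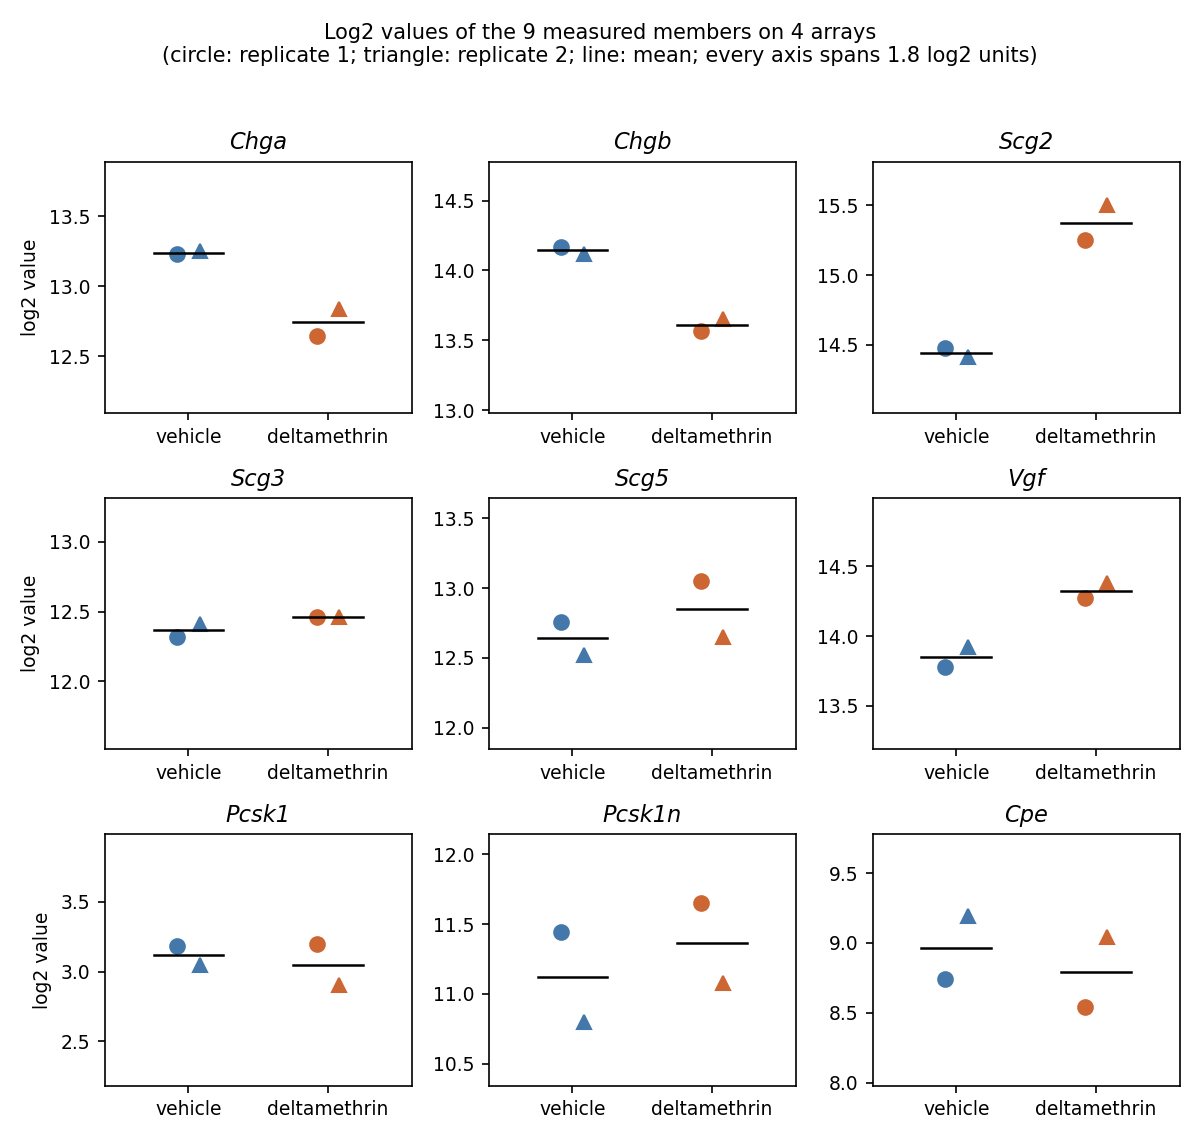
Log2 values (y axis) of the 9 measured members on the vehicle and deltamethrin arrays (x axis), with a circle for replicate 1, a triangle for replicate 2 and a line at the group mean; every y axis spans the same distance. Scg2 and Vgf sit higher on both deltamethrin arrays and Chga and Chgb lower, while Scg5, Pcsk1, Pcsk1n and Cpe overlap between groups.

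Secretogranin III, the product of Scg3, binds chromogranin A and helps to sort it to the vesicle membrane. Scg3 read 12.32 and 12.41 with vehicle and 12.46 on both deltamethrin arrays. Although the groups did not overlap, the gap was 0.05, and the log2 difference was 0.095 ± 0.16 (SE, limma adjusted p = 0.852). Its 95% confidence interval ran from -0.30 to 0.49.

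The products of Scg5 and Pcsk1n regulate the convertases: Scg5 encodes the chaperone 7B2, which the convertase encoded by Pcsk2 needs to become active, and Pcsk1n encodes proSAAS, an inhibitor of the Pcsk1 product. Scg5 read 12.76 and 12.52 with vehicle and 13.05 and 12.65 with deltamethrin, a log2 difference of 0.21 ± 0.21 (SE, limma adjusted p = 0.716). The Scg5 estimate was 0.01 without deltamethrin replicate 1 and 0.41 without deltamethrin replicate 2. Pcsk1n read 11.44 and 10.80 with vehicle and 11.65 and 11.08 with deltamethrin, a difference of 0.25 ± 0.29 (SE, limma adjusted p = 0.770). In both genes replicate 1 was above replicate 2 in each group, and the groups overlapped.

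The enzymes gave no call either. Cpe, the carboxypeptidase that finishes peptides, read 8.74 and 9.19 with vehicle and 8.54 and 9.04 with deltamethrin, with a log2 difference of -0.18 ± 0.25 (SE, limma adjusted p = 0.814). Here replicate 2 was the higher array of each group, and the distance between replicates exceeded the difference between groups. Pcsk1, the convertase gene, read 3.18 and 3.05 with vehicle and 3.20 and 2.90 with deltamethrin. It was the single member below the median of all probe sets (5.60), and with no detection call in the table it cannot be said whether it was above background. Its log2 difference was -0.07 ± 0.19 (SE, limma adjusted p = 0.918). The sign of the estimate turned on which array was left out for Pcsk1n (-0.04 without deltamethrin replicate 1 and -0.08 without vehicle replicate 2), for Cpe (0.08 and 0.05 without the same arrays) and for Pcsk1 (0.09 without deltamethrin replicate 2).

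**Figure D2:**
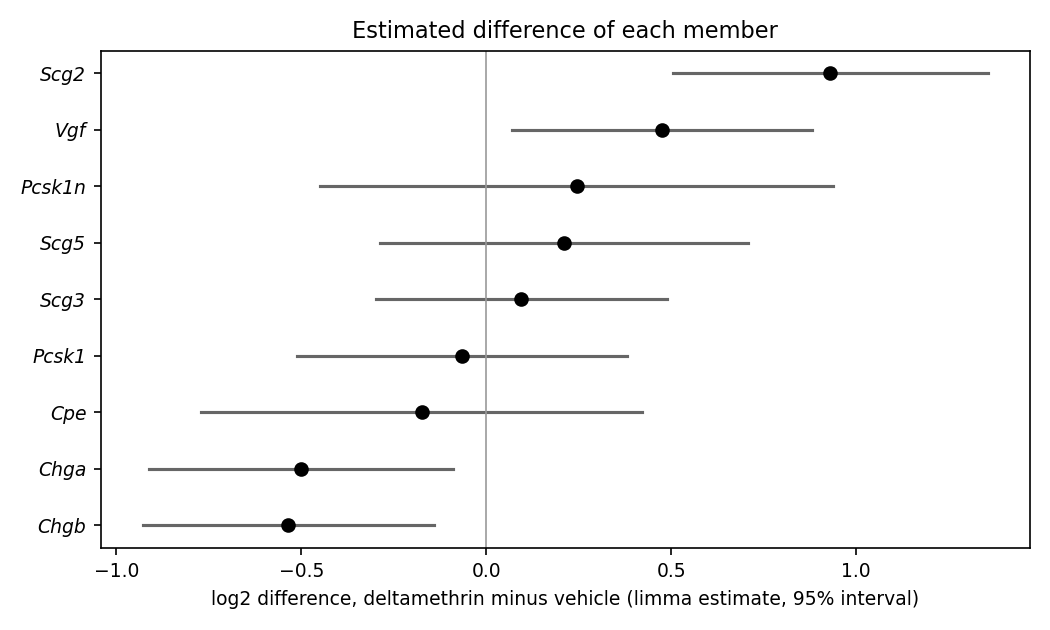
Log2 difference, deltamethrin minus vehicle (x axis), for each measured member (y axis), with the limma estimate as a point and its 95% confidence interval as a line, from 2 arrays per group. The intervals of Scg2 and Vgf lie above 0, those of Chga and Chgb below 0, and the other 5 include 0; these intervals are not adjusted for the number of probe sets tested.

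The ratio of 2 genes within an array is not moved by a shift of the whole array. The log2 value of Scg2 minus that of Chgb was 0.31 and 0.29 on the vehicle arrays and 1.68 and 1.85 on the deltamethrin arrays. The ratio was thus 2.76-fold higher with deltamethrin, a change of 1.47 on the log2 scale. For Scg2 minus Chga the values were 1.25 and 1.16 with vehicle and 2.61 and 2.66 with deltamethrin, a change of 1.43. The change was 0.84 against Scg3, 0.72 against Scg5 and 0.46 against Vgf, and in each of these pairs of granins both deltamethrin arrays were above both vehicle arrays. Against the processing genes it was 1.11 for Cpe and 1.00 for the dim Pcsk1, where the groups were also separate, and 0.69 for Pcsk1n, where they overlapped (3.04 and 3.61 with vehicle, 3.60 and 4.42 with deltamethrin). These pairs were chosen after the values were seen, and an exact two-sided permutation test of 2 arrays against 2 cannot give a p below 0.333, so the changes are a description.

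**Figure D3:**
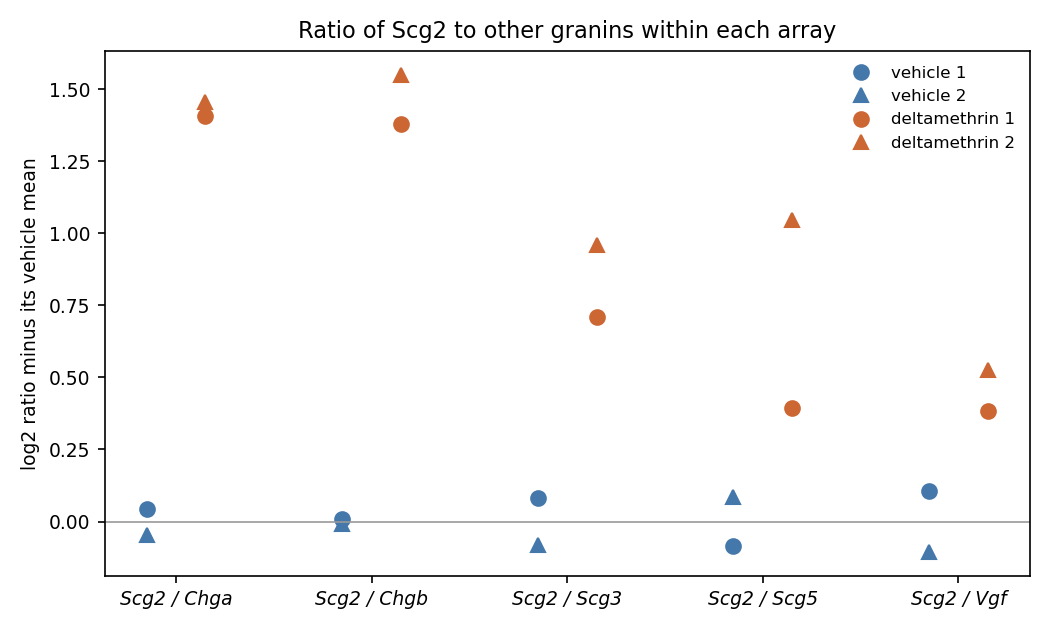
Log2 ratio of Scg2 to each of 5 other granins within an array, minus the mean ratio of the vehicle arrays (y axis), for each pair (x axis), with vehicle arrays in blue and deltamethrin arrays in orange. All deltamethrin points lie above all vehicle points of their pair, highest for the ratios to Chga and Chgb.

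Of the 9 measured sympathoadrenal identity genes, limma called 0, against 0.432% of all probe sets and 0.838% of those above the median. With deltamethrin 8 had lower and 1 had higher estimates, against 5703 lower and 5562 higher among all probe sets above the median. In 7 of the 8 both deltamethrin arrays were below both vehicle arrays, and Gata2 overlapped. Such a separation downward was found in 5221 of all 22206 probe sets and in 3009 of the 11335 above the median. The summed log2 value of the 9 genes was 112.65 to 113.00 with vehicle and 107.59 to 109.90 with deltamethrin. Their median log2 difference was -0.27. The differences ranged from -1.26 for Dbh, which makes noradrenaline, to 0.90 for Th, the first enzyme of catecholamine synthesis. The LIM homeodomain gene Isl1 was at -1.14 ± 0.17 (SE, limma adjusted p = 0.0740). Their part in the granin values was not tested. Summed log2 values of the fibroblast genes were 21.25 to 22.02 with vehicle and 21.38 to 22.17 with deltamethrin, and those of glia 14.67 to 14.99 and 14.63 to 15.08, so both overlapped between groups. Sums of the macrophage and microglia genes were 19.66 to 20.39 with vehicle and 20.57 to 20.59 with deltamethrin.

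The wider dense-core vesicle pathway was read from 81 further genes in 5 lists, of which 75 were measured. Limma called 0 of the 75, against 0.432% of all probe sets. Unadjusted p-values below 0.05 were found for 9 of them (3 with higher and 6 with lower values), against 13.7% of all probe sets, so this count was not above the background. The median log2 difference was -0.04. As background for the direction counts below, 10309 of all 22206 probe sets had higher and 11744 had lower estimates. Of those above the median, 5562 were higher and 5703 lower. With a mean-variance trend 2 were called higher (Hid1 and Syt4) and 1 lower (Pcsk6), again near the background of that setting, 3.63% of all probe sets and 6.99% of those above the median.

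Other convertases, carboxypeptidases and peptide-finishing enzymes had 4 higher and 7 lower estimates among 11 measured, with a median of -0.14 and 0 calls. Pcsk6, which encodes the convertase PACE4, read 9.61 and 9.85 with vehicle and 8.32 and 8.76 with deltamethrin. It was 2.28-fold lower, a log2 difference of -1.19 ± 0.21 (SE, limma adjusted p = 0.103; 0.0139 with a mean-variance trend). Pcsk7, a convertase of the Golgi and cell surface, was at -0.55 ± 0.19 (SE, limma adjusted p = 0.297).

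Vesicle biogenesis and maturation had 14 higher, 3 lower and 1 zero estimates among 18 measured genes, with a median of 0.07 and 0 calls. Hid1, which encodes a trans-Golgi protein needed to form dense-core vesicles, read 12.35 and 12.20 with vehicle and 13.10 and 13.00 with deltamethrin. Both deltamethrin arrays were above both vehicle arrays, and the log2 difference was 0.78 ± 0.17 (SE, limma adjusted p = 0.146; 0.0102 with a mean-variance trend). Ccdc186, which acts in vesicle maturation, was at 0.41 ± 0.18 (SE, limma adjusted p = 0.391).

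Transport, docking and release had 6 higher and 13 lower estimates among 19 measured genes, with a median of -0.21 and 0 calls. Syt4, a synaptotagmin found on dense-core vesicles, read 13.49 and 13.51 with vehicle and 14.34 and 14.32 with deltamethrin. Its replicates were closer to each other than those of Scg2, and its log2 difference was 0.83 ± 0.16 (SE, limma adjusted p = 0.126; 0.00312 with a mean-variance trend). Doc2b, a calcium sensor for release, was at 0.58 ± 0.17 (SE, limma adjusted p = 0.228). It read 5.11 on both vehicle arrays and 5.78 and 5.60 with deltamethrin. Its vehicle mean was below the median (5.60), so it counted as above it only through the deltamethrin arrays.

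Peptide and amine-enzyme cargo had 6 higher and 14 lower estimates among 20 measured genes, with a median of -0.12 and 0 calls. Only 4 of the 20 lay above the median of all probe sets, so most neuropeptide precursors were dim. The prodynorphin gene Pdyn was at -0.52 ± 0.17 and Vip, the vasoactive intestinal peptide gene, at -0.65 ± 0.24 (SE, limma adjusted p = 0.287 and 0.325), both below that median. Regulators of neuroendocrine genes had 1 higher and 6 lower estimates among 7 measured, with a median of -0.20 and 0 calls. The RFX factor gene Rfx3 was at -0.43 ± 0.19 and Crtc1, a coactivator of CREB, at -0.39 ± 0.19 (SE, limma adjusted p = 0.386 and 0.430). Rest, the repressor that keeps granin genes silent outside neuroendocrine cells, was at 0.07 ± 0.20 and Creb1 at -0.26 ± 0.17 (SE).

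**Figure D4:**
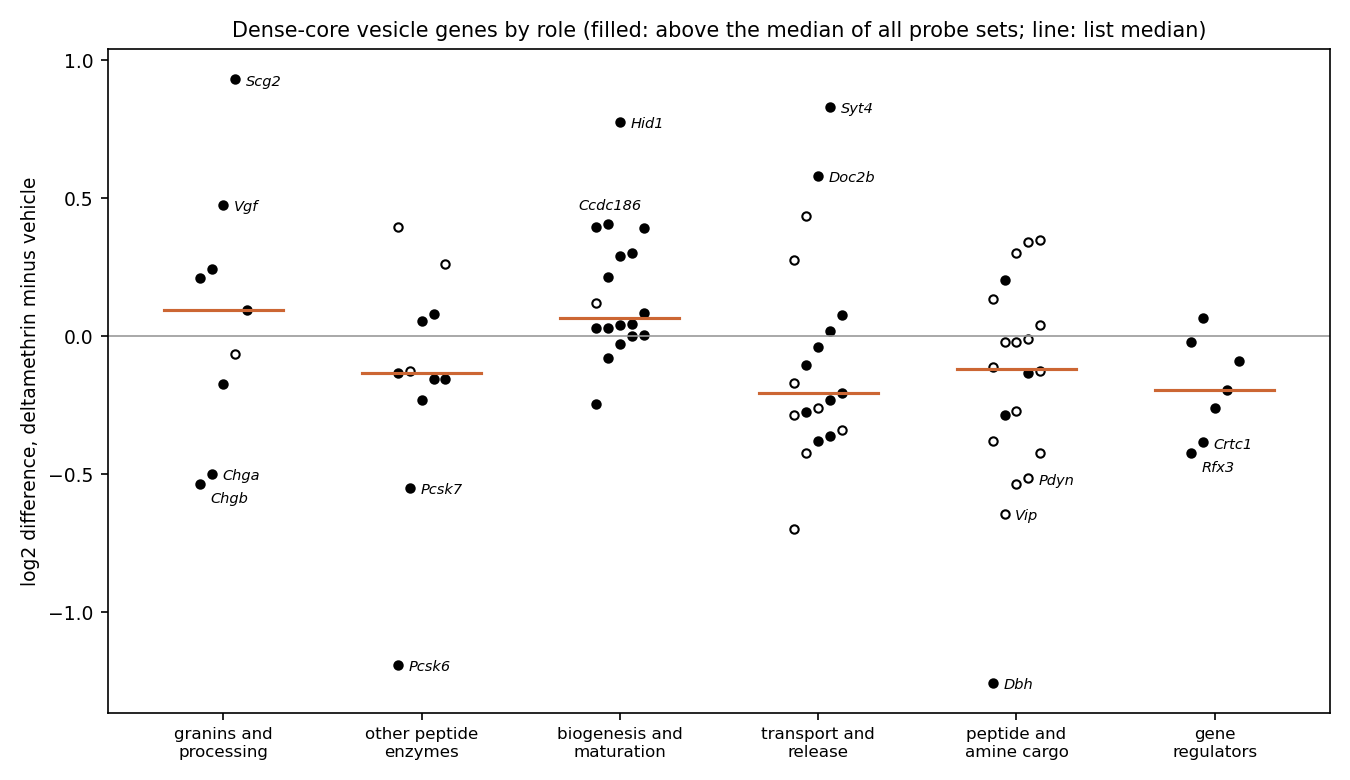
Log2 difference, deltamethrin minus vehicle (y axis), of each measured gene in the granin set and the 5 wider lists (x axis), with filled points above and open points below the median of all probe sets and a line at each list's median. Scg2, Syt4 and Hid1 are the highest points, Dbh and Pcsk6 the lowest, and every list has genes on both sides of 0.

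Among 10163 other named probe sets above the median, those whose 4 values moved most like Scg2 were Oit3, Dync2li1 and Dgka. Likeness was the Euclidean distance between values taken relative to each probe set's vehicle mean, and it was 0.04, 0.06 and 0.07 on the log2 scale. Oit3 read 5.05 and 4.97 with vehicle and 5.85 and 6.08 with deltamethrin. Its vehicle mean (5.01) was below the median (5.60), so it was a candidate only through the deltamethrin arrays. Dgka, a diacylglycerol kinase gene, read 10.95 on both vehicle arrays and 11.80 and 11.98 with deltamethrin, a log2 difference of 0.94 ± 0.17 (SE, limma adjusted p = 0.103). With 4 arrays this measure chiefly picks genes with a difference of the same size.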

How the data were processed

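Total RNA from Neuro-2a cells was hybridised to Clariom S Mouse arrays. The deposited log2 values, 1 per probe set and array, were made by the authors with RMA in a pipeline that also names Transcriptome Analysis Console (source: the submitters' processing notes). RMA aligns the arrays' distributions; its variant and version are not given in those notes. That the scale is log2 was inferred from the range of the values, 1.92 to 18.75.

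Groups came from the sample titles. Deltamethrin minus vehicle was fitted over all 22206 probe sets with limma 3.58.1 in R 4.3.3 (lmFit, eBayes at default settings, no replicate block), with 2 residual and 4.43 prior degrees of freedom. P-values are two-sided with Benjamini-Hochberg adjustment over all probe sets, called at an adjusted p below 0.05. The fit was tested on simulated data. The number of arrays limits the precision (median SE 0.19). Probe sets were named by the platform's annotation, in which 19572 probe sets had 1 symbol, 0 had several and 2634 were unnamed here.

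The members and lists were chosen with earlier results of these data known. All members were named, and from each wider list up to 4 called genes or, with none called, the 2 of smallest p. The 3 probe sets most like the member of smallest p were also named. Other genes were named after their values were seen. Alternatives were the replicate block, quantile, cyclic loess and median scaling, a filter at the 40th percentile, a mean-variance trend, no moderation, 1 probe set per gene, and each array left out. Protein sequences were not used here.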

Additional observations from a re-analysis of the deposited data

How the results depend on the processing

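The count of called members was 0 in limma and 0 under the replicate block, quantile, cyclic loess and median scaling, no moderation and 1 probe set per gene. It was 1 (Scg2) with probe sets above the 40th percentile, where 8 members were tested, and 3 (Scg2 and Vgf higher, Chgb lower) with a mean-variance trend. For the wider lists the count was 0 under the same settings, 2 (Syt4 higher, Pcsk6 lower) with the filter, where 55 genes were tested, and 3 with the trend. Leaving out 1 array gave 0 each time for both counts, where a group left with 1 array took its spread from the other group. All settings that called a member left the estimates as they were and changed the spread or the number of tests. Over all probe sets the calls went from 96 to 806 with the trend, 312 with the filter and 0 under the replicate block, without moderation or without any 1 array. The labels do not tie equal replicate numbers together, and same-numbered arrays deviated from their group means with a correlation of 0.127 over all probe sets and 0.246 over those above the median. With the replicate block, Scg2 had an adjusted p of 0.257, and Pcsk1n (0.25 ± 0.14) and Cpe (-0.18 ± 0.14, SE) had smaller standard errors but still no call. Without 1 array, estimates ran from 0.81 to 1.06 for Scg2, 0.41 to 0.55 for Vgf, -0.58 to -0.50 for Chgb, -0.60 to -0.40 for Chga, 0.05 to 0.14 for Scg3 and 0.01 to 0.41 for Scg5. They crossed 0 for Pcsk1n (-0.075 to 0.565), Cpe (-0.425 to 0.075) and Pcsk1 (-0.215 to 0.085). No scaling moved the median difference of all probe sets by more than 0.018. The 2 arrays per group and the missing detection calls limit what can be said of Pcsk1 and the dim neuropeptide genes.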

Other observations

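Some genes outside the naming rule are also given here, with estimates of differing size. Dbh, whose product is carried inside dense-core vesicles, read 10.09 and 8.96 with vehicle and 8.83 and 7.71 with deltamethrin. In each group replicate 1 was above replicate 2 by over 1 log2 unit, and the limma adjusted p was 0.327. Slc18a2, the vesicular monoamine transporter that loads the same vesicles, was at 0.29 ± 0.17 (SE, limma adjusted p = 0.526). Rab27b, a small GTPase of vesicle docking, was at -0.70 ± 0.21 (SE, limma adjusted p = 0.246) and lay below the median of all probe sets, while its brighter relative Rab27a was at -0.23 ± 0.21. The tyrosine phosphatase-like vesicle membrane genes Ptprn and Ptprn2 were at 0.30 ± 0.17 and 0.39 ± 0.22 (SE), with no call. Their groups did not overlap, by gaps of 0.20 and only 0.04. The same held for 43.9% of all probe sets and 53.2% of those above the median.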
